A study of Homo sapiens with 6 samples.

Results

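Receptors for neurotransmitters were compared between isthmic organizer (IsO)-like cells and control neural cells, both differentiated from H9, an established human embryonic stem cell line. In the embryo, the organizer at the isthmus patterns the midbrain and hindbrain on either side of it. Receptor genes were taken by name, as every row of the deposited table that carries the gene symbol of a nicotinic, muscarinic, GABA, glutamate, glycine, dopamine, serotonin or adrenergic receptor. This gave 105 of 34692 rows. One of them, GRINA, matches the naming pattern but encodes a protein only associated with glutamate receptors, and is kept apart from the 14 receptor classes. It is still included in the counts over all 105 receptor rows and over the tested receptor rows.

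The IsO group held 3 arrays of cells given FGF8 at 100 ng/ml and the GSK3 inhibitor CHIR99021, for which the labels state a range of 0 to 1.2 µM and not the concentration used. The control group held 3 arrays of neural cells. Both groups were neuralised for 4 days with 5 µM dorsomorphin and 10 µM SB431542, inhibitors of BMP and TGF-beta receptors, and then grown attached for 5 days. All cells came from a single stem cell line, and the labels do not say that the arrays of a group were separate cultures, so the p-values cover the spread between these arrays, part of which may be technical. EN1 and EN2, homeobox genes that mark the midbrain-hindbrain region, were above background on 3 of 3 IsO arrays each and on no control array, while PAX2 was above it on 1 IsO array and PAX5 on none. SOX2, PAX6 and NES, markers of neural progenitors, were above background on all 6 arrays.

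Transmitter receptors fall into 2 architectures. Ligand-gated channels are assembled from several subunits around an ion pore and answer quickly, and receptors coupled to G proteins act more slowly through second messengers. In the developing neural tube such receptors can appear before synapses form, and acetylcholine, GABA and glutamate are known to influence progenitors and young neurons.

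In these data most receptor genes were too dim to measure, with 25.7% of their rows tested, beside 41.9% of all rows. Among those that could be tested, a dopamine receptor gene and a nicotinic subunit gene moved in opposite directions. DRD4 was 12.6-fold lower in IsO-like cells, and CHRNA3 was 3.29-fold higher. The call on DRD4 held when any single array was left out, and that on CHRNA3 did not. The other 25 tested rows did not pass the test.

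The promoter sequences of DRD4, CHRNA3 and CHRNB4 are shown because DRD4 and CHRNA3 are the called rows and CHRNB4 lies next to CHRNA3 in the genome. Each run is the stretch of 250 bases before the annotated start, written 5′ to 3′ on the gene's own strand, from RefSeq on GRCh38.p14. Capitals mark the GC box GGGCGG or its reverse complement CCGCCC.
DRD4, chr11:637019-637268, + strand: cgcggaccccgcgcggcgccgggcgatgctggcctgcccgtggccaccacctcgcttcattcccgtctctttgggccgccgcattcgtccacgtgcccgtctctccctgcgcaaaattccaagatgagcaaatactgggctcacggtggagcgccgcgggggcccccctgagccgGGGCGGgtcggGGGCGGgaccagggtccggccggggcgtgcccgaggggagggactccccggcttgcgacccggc
CHRNA3, chr15:78620997-78621246, − strand: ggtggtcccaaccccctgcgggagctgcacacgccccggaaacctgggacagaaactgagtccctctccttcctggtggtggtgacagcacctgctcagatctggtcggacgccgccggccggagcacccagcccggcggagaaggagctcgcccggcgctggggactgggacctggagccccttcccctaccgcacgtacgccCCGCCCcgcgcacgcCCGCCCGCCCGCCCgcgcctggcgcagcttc
CHRNB4, chr15:78641211-78641460, − strand: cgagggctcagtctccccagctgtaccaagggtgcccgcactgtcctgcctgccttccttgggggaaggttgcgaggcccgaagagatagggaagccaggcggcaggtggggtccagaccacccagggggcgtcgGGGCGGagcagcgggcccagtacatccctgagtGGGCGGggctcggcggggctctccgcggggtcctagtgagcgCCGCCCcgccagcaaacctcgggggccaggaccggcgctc

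All 3 windows were rich in G and C, at 74.4% for DRD4, 73.6% for CHRNA3 and 72.4% for CHRNB4. The GC box occurred 2 times before DRD4, 4 times before CHRNA3, where 3 of the matches overlap, and 3 times before CHRNB4. Of 35116 windows of this length in the RefSeq table, 42.6% held it. The E-box CANNTG, a palindrome, occurred once each before DRD4 and CHRNA3 and 2 times before CHRNB4, and 61.8% of all windows held it. The TCF/LEF core CTTTGA and its reverse complement TCAAAG were not among these letters in any of the 3 windows, and 11.2% of all windows held either. The window of CHRNA5, the remaining gene of the nicotinic cluster, was not used here.

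For each array, a receptor row counted as above background if its detection p-value, a comparison with that array's negative control beads, was under 0.05. For rows combining several probes, a signal no lower than that of the dimmest detected single-probe row was enough. By this measure 65 of the 105 receptor rows were not above background on any array, 40 were above it on at least 1, and 20 on all 6. On single arrays the number was 35, 28 and 27 in IsO-like cells and 27, 26 and 26 in control cells. By detection p-value alone it was 33, 28 and 27 on the IsO arrays and 27, 25 and 26 on the control arrays. Over all 34692 rows, a detection p-value under 0.05 was reached by 15232, 14464 and 14041 on the IsO arrays. On the control arrays it was reached by 14291, 14186 and 13999. A row below background has no measured level, and an absent signal cannot be told from a probe that works poorly. In bulk RNA, fewer cells with a transcript and less transcript per cell cannot be told apart either.

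**Figure D1:**
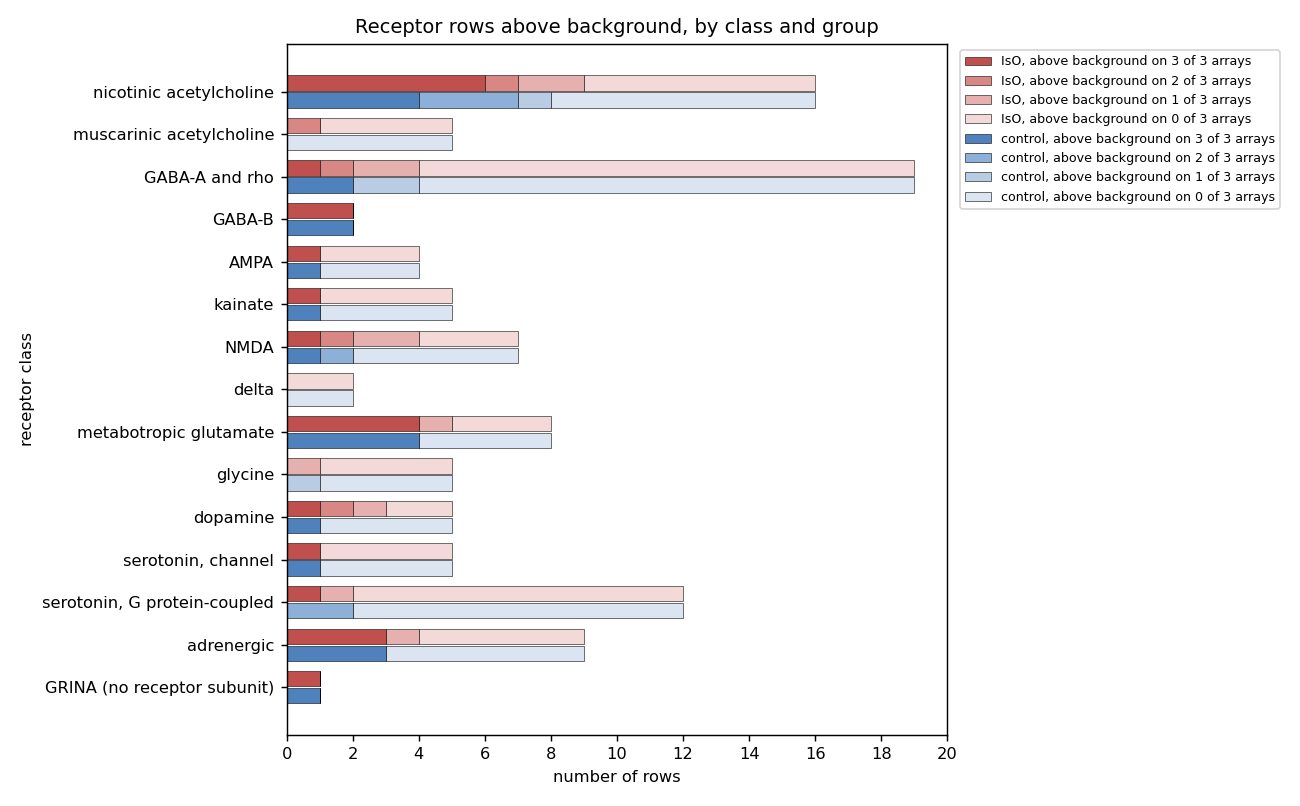
Number of receptor rows (x axis) in each receptor class (y axis), with the IsO bar above the control bar and darker shades for rows above background on more of the 3 arrays of the group. Nicotinic and metabotropic glutamate receptors have many rows above background, while 15 of 19 GABA-A and rho rows and 10 of 12 G protein-coupled serotonin rows were above it on no array.

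Detection was counted by class. Of 63 channel subunit rows 22 were above background on at least 1 array, and of 41 G protein-coupled receptor rows 17 were. Nicotinic subunits had 10 of 16 rows above background on at least 1 array and 7 on 2 or 3 arrays of each group. Metabotropic glutamate receptors had 5 of 8 and adrenergic receptors 4 of 9. Both GABA-B subunits, GABBR1 and GABBR2, which form an obligatory pair, were above background on all 6 arrays. At the other end, muscarinic receptors had 1 of 5 rows above background, AMPA subunits 1 of 4, kainate subunits 1 of 5, glycine subunits 1 of 5 and delta subunits 0 of 2.

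Several channels were measured only in part. GRIN1, the subunit that every NMDA receptor needs, was not above background on any array, with deposited intensities of 131, 120 and 142 on the IsO arrays and 132, 137 and 121 on the control arrays. GRIN2A and GRIN3B, which assemble with it, were above background on 2 or 3 arrays of each group. GRIK5, a kainate subunit that needs a partner among GRIK1, GRIK2 and GRIK3 to form a channel, was above background on all 6 arrays, and those 3 partners on none. For GABA-A channels, the gamma subunit GABRG3 was above background on 2 IsO and 3 control arrays, while the alpha subunit GABRA5 reached it on 1 array of each group and the alpha subunits GABRA2, GABRA3, GABRA4 and GABRA6 on none. HTR3A, the subunit that serotonin-gated channels require, was above background on all 6 arrays and HTR3B, HTR3C, HTR3D and HTR3E on none. The muscle nicotinic subunits CHRNA1, CHRND and CHRNG were not above background on any array, whereas CHRNB1 was on all 6 and CHRNE on 3 IsO and 2 control arrays. Of 6 muscle markers, MYOD1, MYOG, DES and MYH3 were not above background on any array, MYF5 was on 1 control array and ACTC1, a cardiac actin, on all 6, and none was tested. The summed corrected intensity of the 6 ranged from 211 to 246 on the IsO arrays, against 297 to 733 on the control arrays. Only ACTC1 and, on 1 control array, MYF5 were above background in this sum. The part of the sum in the muscle subunit values was not tested.

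Detection was also counted over receptor genes that sit together in the genome. In RefSeq, CHRNA5, CHRNA3 and CHRNB4 are consecutive genes, and all 3 were above background on at least 2 arrays of a group. The 4 genes of the GABRG1, GABRA2, GABRA4 and GABRB1 cluster were above background on no array. CHRNB3 and CHRNA6, a further pair, were above background on IsO 1 alone.

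For levels, intensities were corrected for background, quantile-normalised and put on a log2 scale. The limma fit took rows whose detection p-value was under 0.05 on 3 or more of the 6 arrays, and those with a Benjamini-Hochberg adjusted p below 0.05 over all 14548 tested rows were called. Of the 105 receptor rows 27 entered the test, or 25.7%, beside 41.9% of all rows. Every adjusted p below comes from this fit unless the replicate block, a left-out array or another background setting is named. Arrays with the number 1 stood apart from the rest. The SD of the log2 difference over tested rows was 0.737 and 0.949 between IsO 1 and the other IsO arrays and 0.411 between IsO 2 and IsO 3, and it was 0.800 and 0.756 between control 1 and the other control arrays and 0.357 between control 2 and control 3. IsO 1 and control 1 differed by an SD of 0.564, so results are also given without both arrays.

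Of the 27 tested receptor rows 1 was called higher in IsO-like cells and 1 lower, and 25 were not called. Over all tested rows 0.811% were called higher and 0.488% lower. An unadjusted p below 0.05 was reached by 3 of the 27 receptor rows, DRD4, CHRNA3 and CHRNB4, and by 1444 of all 14548 tested rows, or 9.93%. With the replicate number as a block the same number of receptor rows was called, 1 in each direction, while 3.22% of all rows were called higher and 2.42% lower. The median difference of the tested receptor rows was -0.06 on the log2 scale, beside -0.01 over all tested rows, and the median absolute difference was 0.34, beside 0.22 over all tested rows. The IsO and control arrays did not overlap for 5 of the 27 rows, with IsO above control for CHRNA3, CHRNB4 and ADRA2B and below it for DRD4 and GRIA3. Over all tested rows 8.2% had IsO above control without overlap and 7.24% had it below.

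**Figure D2:**
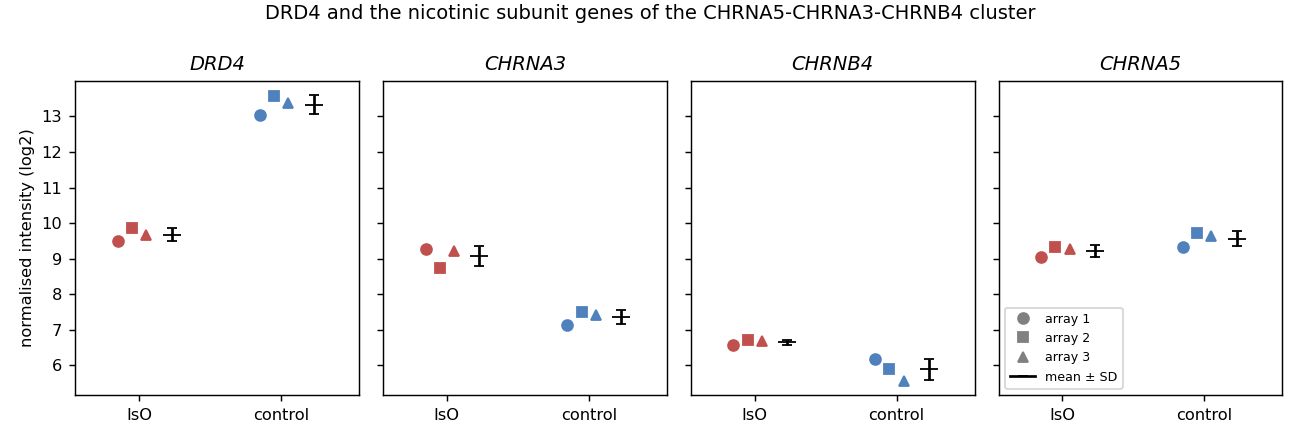
Normalised intensity on the log2 scale (y axis) of DRD4 and the 3 nicotinic subunit genes of the cluster on each array, IsO left of control, with symbols for the array number and the mean with SD (n = 3) beside the points. The IsO arrays lie between 9.49 and 9.87 for DRD4 and the control arrays between 13.05 and 13.57, CHRNA3 is higher on every IsO array, and the CHRNA5 groups overlap.

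DRD4 encodes a dopamine receptor coupled to inhibitory G proteins, known from retina and forebrain. Its log2 intensity was 9.49, 9.87 and 9.68 on the IsO arrays, against 13.05, 13.57 and 13.37 on the control arrays. Every IsO array was lower than every control array, by more than 3 log2 units. The deposited intensities, before any correction, were 988, 953 and 927 in IsO-like cells and 7414, 12903 and 10785 in control cells, and the row was above background on all 6. DRD4 fell by 3.66 ± 0.21 on the log2 scale in IsO-like cells (SE, 3 arrays per group, adjusted p = 0.00104), which is 12.6-fold lower. This was the 11th lowest difference of all 14548 tested rows.

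Within the array numbers the DRD4 difference was -3.57, -3.71 and -3.69. It was called under all 17 alternatives, with differences from -3.95 to -3.49 and adjusted p-values from 0.000259 to 0.0150. The row rests on 1 probe. The summed level of neural progenitor markers was lower on the same arrays. The summed corrected intensity of the 8 genes ranged from 65057 to 88122 on the IsO arrays, against 105557 to 130946 on the control arrays. Of 7 tested genes only SOX2 was called, which fell by 1.43 ± 0.22 (adjusted p = 0.0390), and 6 were not. An unadjusted p below 0.05 was reached by 6 of the 7, beside 9.93% of all tested rows. All 8 progenitor rows were above background on at least 1 array, and their part in the difference of DRD4 was not tested.

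The other dopamine receptor genes had no comparable signal. DRD1 and DRD5 were not above background on any array. DRD2 was above it on IsO 1 alone, with deposited intensities of 170, 137 and 142 on the IsO arrays, against 122, 127 and 115 on the control arrays. DRD3 was above it on IsO 1 and IsO 3, with 151, 142 and 157 on the IsO arrays, against 135, 138 and 151 on the control arrays. The DRD3 values overlapped between groups, and neither gene was tested.

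CHRNA3 encodes the alpha subunit of the nicotinic receptor of autonomic ganglia, which typically pairs with the beta subunit of CHRNB4 and can take up the accessory subunit of CHRNA5. Its log2 intensity was 9.27, 8.74 and 9.20 on the IsO arrays, against 7.13, 7.51 and 7.41 on the control arrays. All IsO arrays were above all control arrays, and the row was above background on all 6. CHRNA3 rose by 1.72 ± 0.22 on the log2 scale in IsO-like cells (SE, 3 arrays per group, adjusted p = 0.0226), or 3.29-fold. Within the array numbers the difference was 2.13, 1.24 and 1.79. The deposited intensities were 870, 495 and 685 in IsO-like cells and 240, 284 and 266 in control cells.

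The call on CHRNA3 was lost when any single array was left out, with differences from 1.61 to 1.88 and adjusted p-values from 0.0519 to 0.127, and it held without both arrays numbered 1 (1.51, adjusted p = 0.0468). The size depended on the background: it was 1.24 without correction (adjusted p = 0.0251) and 0.26 with the background taken from all rows (adjusted p = 0.102, not called). The all-rows background had means of 258 to 296 and SDs of 759 to 903, beside median array intensities of 144 to 157. On every control array its mean was above the deposited intensity of CHRNA3.

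CHRNB4 did not pass the test. Its log2 intensity was 6.57, 6.70 and 6.67 on the IsO arrays, against 6.17, 5.91 and 5.57 on the control arrays. The groups did not overlap, although the signal was low and control 3 was not above background. The difference was 0.76 ± 0.21 (adjusted p = 0.222, 0.0769 with the replicate block). CHRNA5 had 9.03, 9.34 and 9.26 on the IsO arrays and 9.32, 9.71 and 9.65 on the control arrays, with overlapping groups and a difference of -0.35 ± 0.20 (adjusted p = 0.724, 95% interval -0.82 to 0.13). That interval lies below the interval of CHRNA3, 1.19 to 2.25, and the difference between the 2 genes was not tested itself. The annotated spans of CHRNA5 and CHRNA3 overlap in RefSeq, and the row of CHRNA3 combines several probes whose positions were not analysed here.

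Markers of autonomic and sensory neuron precursors, in which this type of nicotinic receptor is known, had a higher summed level on the IsO arrays. The summed corrected intensity of 7 genes ranged from 1967 to 8697 on the IsO arrays, against 612 to 1839 on the control arrays. Of 4 tested members none was called by limma and 2 had an unadjusted p below 0.05, beside 9.93% of all tested rows. With the replicate block 3 of the 4 rose, beside 3.22% of all tested rows. The largest differences were those of ISL1 and POU4F1, homeobox genes of sensory and other neurons, at 2.04 ± 0.75 and 1.78 ± 0.30 (adjusted p = 0.411 and 0.0516, with the block 0.0406 and 0.0114). PHOX2A and HAND2, defining genes of autonomic neurons, were not above background on any array. The part of these markers in the difference of CHRNA3 was not tested.

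The remaining nicotinic rows did not pass. CHRNA10, a subunit known from cochlear hair cells, had overlapping groups and a difference of -0.45 ± 0.50 (adjusted p = 0.927). CHRNB1, CHRNE and CHRNA2 differed by -0.09, 0.36 and 0.11 (adjusted p = 0.990, 0.830 and 0.979). CHRNA2 was above background on 2 arrays of each group and CHRNE on 3 IsO and 2 control arrays, so these differences include values at background. CHRNA4 and CHRNB2, which together form the most common nicotinic receptor of the adult brain, were not above background on any array, and CHRNA7 was above it on control 3 alone. Of the muscarinic receptors, only CHRM3 was above background, on 2 IsO arrays and no control array. Its deposited intensities were 189, 166 and 164 in IsO-like cells and 117, 134 and 115 in control cells. CHRM3 was not among the rows tested, and was singled out here after its values were seen. With no control array above background its difference has only a bound, at least 1.06-fold higher in IsO-like cells, and no test.

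**Figure D3:**
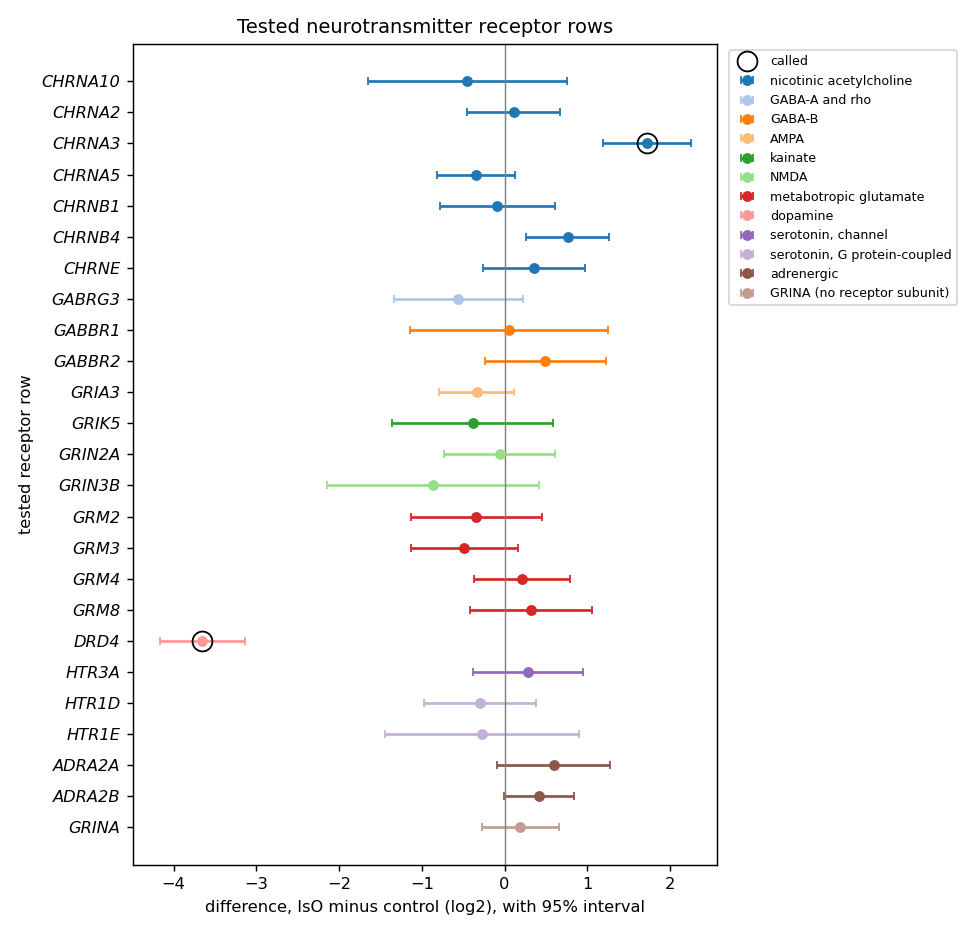
Difference between IsO-like and control cells on the log2 scale (x axis, point and 95% interval from the limma fit, 3 arrays per group) of 25 of the 27 tested rows (y axis), coloured by receptor class, with a ring round called rows. DRD4 at -3.66 and CHRNA3 at 1.72 are ringed, and all other differences lie between -0.86 and 0.76, with CHRNB4 the only uncalled row whose interval leaves out 0.

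Glutamate receptors were not called in any class. The metabotropic receptors GRM2 and GRM3, which inhibit transmitter release, were measured on all 6 arrays. GRM2 had 9.87, 10.29 and 10.85 on the IsO arrays and 10.19, 10.84 and 10.99 on the control arrays, and GRM3 had 9.38, 9.63 and 9.65 on the IsO arrays and 10.27, 10.34 and 9.51 on the control arrays. The groups overlapped for both, with differences of -0.34 ± 0.33 and -0.49 ± 0.27 (adjusted p = 0.909 and 0.707). GRM8 and GRM4, of the same inhibitory kind, differed by 0.32 ± 0.31 and 0.21 ± 0.24 (adjusted p = 0.908 and 0.927). GRM6 and GRM7 were not above background on any array.

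GRIN3B, an NMDA subunit that lowers calcium entry, had 6.81, 7.63 and 7.61 on the IsO arrays and 7.02, 8.82 and 8.80 on the control arrays. Both arrays numbered 1 were the lowest of their group, and the difference was -0.86 ± 0.53 (adjusted p = 0.763). Without both of them it was -1.19 and was called (adjusted p = 0.0329). GRIN2A differed by -0.06 ± 0.28 (adjusted p = 0.994). The AMPA subunit GRIA3 had 5.77, 6.10 and 6.15 on the IsO arrays and 6.48, 6.28 and 6.28 on the control arrays. All IsO values were lower, but the difference of -0.34 ± 0.19 did not pass (adjusted p = 0.718). GRIK5 differed by -0.39 ± 0.41 (adjusted p = 0.921). GRINA, measured on all 6 arrays, differed by 0.19 ± 0.19 (adjusted p = 0.914).

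Receptors for GABA gave no call. GABBR2, the subunit of the GABA-B pair that couples to the G protein, had 6.77, 6.98 and 7.77 on the IsO arrays and 6.59, 6.97 and 6.49 on the control arrays (difference 0.49 ± 0.30, adjusted p = 0.764). GABBR1, the subunit that binds GABA, differed by 0.06 ± 0.50 (adjusted p = 0.995), with arrays numbered 1 the lowest of each group. The channel subunit GABRG3 differed by -0.56 ± 0.33 (adjusted p = 0.731). Of glycine receptor subunits only GLRB, which anchors the channel at synapses, was above background, on IsO 1 and control 1, and none was tested.

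Among monoamine receptors other than DRD4, none was called. ADRA2B, an inhibitory alpha receptor, had 6.63, 6.90 and 6.90 on the IsO arrays and 6.34, 6.47 and 6.35 on the control arrays. The groups did not overlap, and the difference was 0.42 ± 0.18 (adjusted p = 0.507). ADRA2A had 7.28, 8.03 and 8.10 on the IsO arrays and 6.92, 7.46 and 7.26 on the control arrays (difference 0.60 ± 0.29, adjusted p = 0.615). The serotonin receptor rows HTR3A, HTR1D and HTR1E differed by 0.29 ± 0.28, -0.30 ± 0.28 and -0.27 ± 0.49 (adjusted p = 0.907, 0.904 and 0.971). HTR1D was above background on 1 IsO and 2 control arrays, and HTR1E on 3 IsO and 2 control arrays. Both differences therefore include values at background. The control arrays of HTR1E also spread widely, at 5.36, 5.93 and 7.36.

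The 95% interval of the difference lay within 1 log2 unit of 0 for 13 of the 25 rows that were not called, and the widest reached -2.14, for GRIN3B.

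**Figure D4:**
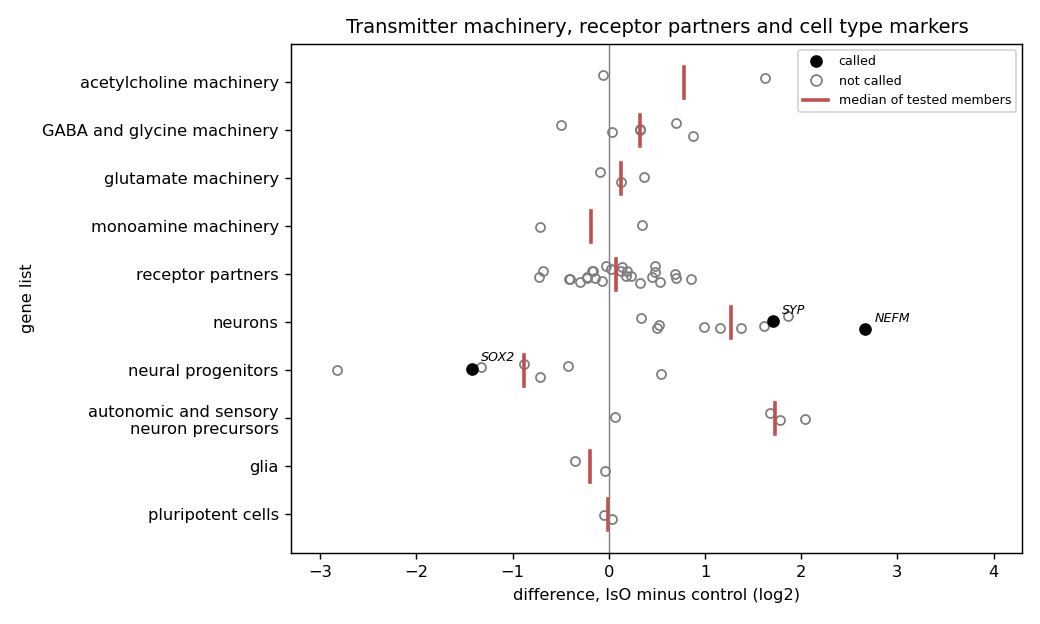
Difference between IsO-like and control cells on the log2 scale (x axis) of the tested genes of each list with tested members (y axis), with called genes filled and named and a bar at the median of the tested members. Members of the machinery and partner lists lie on both sides of 0. The bars lie at 0.78 for acetylcholine, 0.32 for GABA and glycine, 0.13 for glutamate, -0.19 for monoamines and 0.08 for the partners. The monoamine bar includes MAOB, above background on control arrays alone. The neuron bar, at 1.27, includes SYP, above background on IsO arrays alone. All tested neuron and precursor markers lie to the right, and 6 of 7 progenitor markers lie to the left.

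Genes that make, store or clear transmitters were set beside the receptors. Of 41 listed genes 21 were not above background on any array, among them CHAT, SLC18A3 and SLC5A7, which mark cholinergic neurons, GAD2 and SLC32A1, which mark GABA neurons, and the vesicular glutamate transporters SLC17A6, SLC17A7 and SLC17A8. Of 13 tested genes none was called by limma. MAOB, which breaks down dopamine, was among them only through the 3 control arrays, as no IsO array was above background, and its IsO level was lower by at least 1.26-fold. Of the other 12, 4 had an unadjusted p below 0.05, beside 9.93% of all tested rows, and their median difference was 0.32. With the replicate block 2 of the 12 rose, beside 3.22% of all tested rows. BCHE, an esterase that splits choline esters, had 9.17, 8.32 and 8.37 on the IsO arrays and 7.53, 6.50 and 6.96 on the control arrays, a difference of 1.63 ± 0.35 (adjusted p = 0.115, 0.0101 with the block). GAD1, which makes GABA, differed by 0.88 ± 0.33 (adjusted p = 0.419, 0.0367 with the block). Among 15 monoamine genes, 8 were above background on no array: DDC, which acts between TH and DBH in catecholamine synthesis, PNMT, the transporters SLC18A1, SLC18A2, SLC6A2 and SLC6A4, and the serotonin enzymes TPH1 and TPH2. TH, DBH, SLC6A3 and MAOA were each above background on 2 IsO arrays and no control array, and were not tested.

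Receptor partners, the scaffolds, chaperones and auxiliary subunits that bring receptors to the membrane, gave no call either. Of 49 listed genes 26 were tested, none passed in limma, 5 had an unadjusted p below 0.05, beside 9.93% of all tested rows, and the median difference was 0.08. KCTD8, an auxiliary subunit of GABA-B receptors, and HOMER2, a scaffold of metabotropic glutamate receptors, had the largest differences, 0.85 ± 0.28 and -0.73 ± 0.24 (adjusted p = 0.324 and 0.340).

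The summed level of neuron markers was higher on the IsO arrays. Their summed corrected intensity over 14 genes ranged from 23675 to 28349 on the IsO arrays, against 14358 to 17651 on the control arrays. SYP, a synaptic vesicle protein, was tested only through the IsO arrays, as no control array was above background, and was at least 2.25-fold higher in IsO-like cells. Of the other 9 tested genes 1 rose, beside 0.811% of all tested rows. This was the neurofilament subunit NEFM, which rose by 2.67 ± 0.44 (adjusted p = 0.0498). The remaining 8 did not pass, and the median of the 9 was 1.16. Of the 9, 6 had an unadjusted p below 0.05, beside 9.93% of all tested rows. With the replicate block 4 rose, beside 3.22% of all tested rows. RBFOX3, a marker of mature neurons, was below background throughout. Of 7 tested progenitor markers 1 fell, beside 0.488% of all tested rows, and 6 did not pass. The median of the 7 was -0.89. An unadjusted p below 0.05 was reached by 6 of the 7, beside 9.93% of all tested rows. With the block 4 fell, beside 2.42% of all tested rows. Of 2 tested glial and 2 tested pluripotency genes none passed or had an unadjusted p below 0.05, and GFAP, AQP4, MBP and NANOG were not above background on any array. The part of the neuron markers in the receptor differences was not tested.

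**Figure D5:**
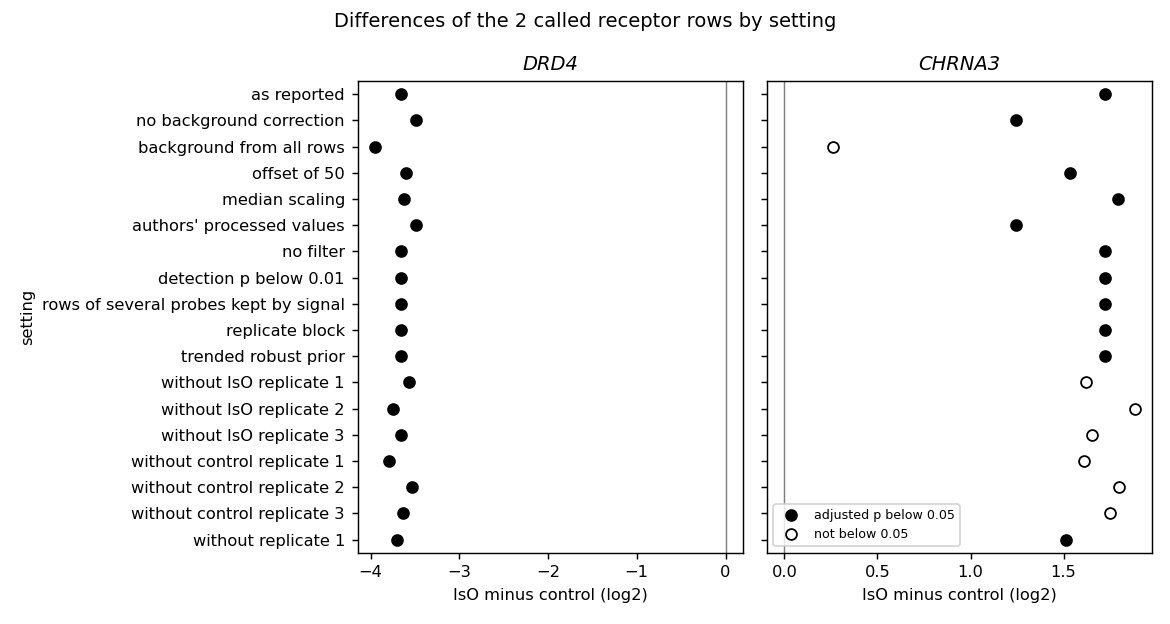
Difference between IsO-like and control cells on the log2 scale (x axis) of DRD4 and CHRNA3 under the reported setting and 17 alternatives (y axis), filled where the adjusted p was below 0.05. DRD4 stays between -3.95 and -3.49 and filled throughout, and CHRNA3 ranges from 0.26 to 1.88 and is open with the background from all rows and without any single array.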

How the data were processed

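RNA of 6 samples was measured on Illumina bead arrays, for which the submitters' processing notes name GenomeStudio 2011.1. In the deposited table there is a linear intensity per gene name and array, with no background subtracted, and a detection p-value, per the file headers and the values. The authors' processed table held log2 values. Quantile normalisation of the uncorrected intensities came within 0.00754 of them, and that table served as an alternative. No genome build is given in the sources used here. By the spacing of their detection p-values, in steps of 1 in 770, 27312 of 34692 rows held 1 probe and 7380 combined several.

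Background means and SDs were inferred from the detection p-values of the rows of 1 probe (means of 122 to 132, SDs of 22.0 to 25.3) and removed by normexp (limma 3.58.1, R 4.3.3; offset 16), followed by quantile normalisation and log2. The offset compresses differences of dim rows: that of CHRNB4 was 0.76 with an offset of 16 and 0.52 with an offset of 50. Without any correction it was smaller, at 0.34. The test took rows detected at p under 0.05 on 3 or more arrays (lmFit, eBayes, no covariate, Benjamini-Hochberg). The fit was tested on simulated data.

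Deviations from the group means had correlations of 0.870, 0.395 and 0.654 between same-numbered arrays. Only 1 of these, that of the arrays numbered 1, was the highest for both of its arrays. IsO 2 and control 3 reached 0.487, and IsO 3 and control 2 reached 0.699. Deviations in a group sum to 0, so outlying arrays numbered 1 also raise the correlations among the rest. Pairing of numbers 2 and 3 is thus not shown, and the labels state none. A fit with the number as a block is given as an alternative where it changes a call or a count. No 2 arrays shared more than 1 identical value.

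Where a row was above background on no array of a group, its fold is a bound ("at least"): the mean of the brighter group over the mean, per dimmer array, of either its own value or that of the dimmest detected single-probe row, whichever was higher. Of the 27 tested receptor rows 25 were named, with called rows and the 2 largest differences of each other list. Some genes are not reported here and were left out of the lists, though receptor counts cover all 105 rows. Members and lists were chosen with earlier results of these data known. For 3 listed genes the row carried an older symbol, matched in RefSeq (RBFOX3 as HRNBP3, NSG1 as D4S234E, LIN28A as LIN28).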

Additional observations from a re-analysis of the deposited data

How the results depend on the processing

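DRD4 kept its direction and its call under all 17 alternatives, and CHRNA3 kept its direction under all 17 and its call under 10. These alternatives are not independent of each other. CHRNA3 differed by 1.24 both without background correction and in the authors' processed values, and changes of the row filter left its difference at 1.72. The background from all rows had means above the median intensity of every array. With it 0 receptor rows were called higher, and 101 of all tested rows were called in place of 189. With the replicate block 820 of all rows were called, and no receptor call changed. Leaving out arrays gave 0 to 1 receptor rows called higher, 1 to 2 called lower (the second was GRIN3B, without both arrays numbered 1), 40 to 357 of all rows called, and a median receptor difference of -0.17 to 0.17. The differences of 5 uncalled rows among those named changed sign when an array was left out, with ranges of -0.078 to 0.25 for CHRNA2, -0.34 to 0.10 for CHRNB1, -0.41 to 0.42 for GABBR1, -0.24 to 0.21 for GRIN2A and -0.70 to 0.30 for HTR1E. A detection p below 0.01 left 21 IsO and 19 control receptor rows detected on at least 2 arrays, in place of 28 and 27. Signals near background and 3 arrays a group limit what could be seen. The cause of these shifts was not tested.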
